A study of Mus musculus with 24 samples.

Results

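The nuclear genes for the subunits of the 5 oxidative phosphorylation (OXPHOS) complexes were followed across 24 RNA-seq libraries of mouse myoblasts. They were chosen by symbol, taking genes named as *Nduf* subunits (complex I), *Sdha* to *Sdhd* (complex II), *Uqcr* genes (complex III), *Cox4* to *Cox8* genes (complex IV) and *Atp5* genes (complex V), without 10 symbols that mark pseudogenes. The rule took 85 of the 55291 genes in the count table, of which 37 belong to complex I, 4 to complex II, 8 to complex III, 19 to complex IV and 17 to complex V. *Ndufa4* stands under complex I because of its symbol, although its protein is known as a complex IV subunit, and *Cyc1* of complex III was not taken because its symbol has another form.

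Complexes I to IV form the respiratory chain of the inner mitochondrial membrane, which passes electrons from NADH and succinate to oxygen and pumps protons, and complex V, the ATP synthase, uses the proton gradient to make ATP. Most subunits are encoded in the nucleus, and the catalytic core is completed by a few subunits encoded in mitochondrial DNA, so both genomes are needed to build the chain. Complex IV holds copper in its catalytic centres, and muscle cells switch several complex IV subunits to muscle forms as they differentiate.

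The cells were C2C12, a mouse line of muscle precursors (myoblasts), in 4 stable lines selected with puromycin after lentiviral delivery of an shRNA: a scrambled control (scr) and knockdowns (KD) of *Baf180*, *Baf250a* or *Brd9*, which mark 3 forms of the SWI/SNF chromatin remodelling complex (PBAF, BAF and ncBAF). Each line was sampled without added metal (NT), with 100 µM CuSO4 (Cu) and with 50 µM ZnSO4 (Zn) for 48 h, with 2 biological replicates in each of the 12 groups. The scr cells carried a control shRNA under the same selection. The study lists more than 1 shRNA for each target. Which of them was sequenced, and whether both replicates of a KD came from the same transduced cells, is not given in the sources used here. An effect of the targeted gene therefore cannot be told apart from one of the shRNA or of the selected cells. GEO's labels name primary myoblasts and knockdown with Lipofectamine, whereas the study's methods name C2C12 cells and stable lentiviral shRNA, and the methods are followed here.

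Libraries held 495778 to 75179394 counts (median 22158430), and replicate 2 of *Baf250a* KD with Zn was the shallowest. The targeted genes were lower in the 6 libraries of their KD line than in the 6 scr libraries. *Pbrm1*, which encodes BAF180, was at 42.1 to 75.7 CPM (counts scaled to library size with TMM factors) against 97.8 to 235.5, *Arid1a*, which encodes BAF250A, at 91.9 to 145.9 against 268.1 to 304.7, and *Brd9* at 13.8 to 17.6 against 26.7 to 31.7. Myoblast markers were expressed in every line, with summed levels of 2938 to 4204 CPM in scr, 1915 to 2138 in *Baf180* KD, 1310 to 1510 in *Baf250a* KD and 1990 to 2355 in *Brd9* KD. Markers of muscle differentiation summed to 73.0 to 104.9, 126.9 to 180.3, 61.3 to 80.8 and 33.7 to 39.5 CPM in the same order, and fibroblast markers, nearly all of it *Col1a1*, to 38.9 to 50.6, 361.4 to 432.7, 2041 to 2659 and 61.5 to 84.2 CPM. *Des* and *Itga7* made up most of the myoblast sum (2324 and 999 CPM in scr NT) and *Acta1* most of the differentiation sum there (60.5 CPM). Single markers went otherwise without metal (edgeR adjusted p under 0.05). *Pax7* was higher than scr in *Baf180* and *Brd9* KD (log2 fold change 0.92 and 1.41) and lower in *Baf250a* KD (-1.21). *Myod1* (0.35), *Myog* (0.57) and *Myh3* (0.64) were higher in *Baf250a* KD, and *Myod1* was lower in *Brd9* KD (-0.30). Endothelial markers reached at most 5.46 CPM and macrophage markers 6.14 CPM. Adipocyte markers, nearly all of it *Pparg*, lay between 13.3 and 24.8 CPM in all lines. The slope of log2 expression on the GC content of genes differed between libraries, and within scr it ran from 0.282 per 10 percentage points in NT replicate 2 and 0.0666 in NT replicate 1 to -0.304 and -0.345 in the Zn libraries.

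Of the 85 genes, 80 had enough counts to be tested in the fit of all 24 libraries. The exceptions were *Cox4i2*, *Cox6b2*, *Cox6c2*, *Cox7b2* and *Cox8c*, forms of complex IV subunits known from lung, testis or other tissues, which had at most 8 counts in any library. Per kb of transcript, *Atp5b*, the catalytic beta subunit of the ATP synthase, had the highest mean level over the 24 libraries (1058 CPM per kb), followed by *Atp5a1*, the alpha subunit (346), and *Cox4i1* of complex IV (310). The ubiquitous form of a subunit was far above the muscle form. *Cox6a1* was at 203 and 217 CPM in the scr NT libraries and *Cox6a2* at 1.38 and 2.46 CPM, *Cox7a2* at 78.3 and 92.9 CPM and *Cox7a1* at 0.876 and 1.00 CPM, and *Cox8a* at 166 and 207 CPM and *Cox8b* at 0.501 and 0.455 CPM. These are small genes, with a median transcript length of 823.5 bp for the 78 tested members that have a gene model, against 3054 bp for all protein-coding genes tested, and a median GC content of 51.6% against 50.5%. Of those members, 60.3% have transcripts under 1000 bp, against 5.64% of all genes.

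The promoters were searched for motifs of factors known to drive respiratory genes, beside the windows of all genes, expressed or not. Members that fell in the KD lines were not compared with those that did not, so a link between motifs and the fall was not tested. RefSeq windows of 300 bases (250 before the start and 50 after it, GRCm38.p6) were at hand for 69 of the 85 genes. The NRF1 motif GCGCATGC was present on either strand in 14.5% of these windows, against 2.8% of 27025 windows of all genes. GABPA's CCGGAAG stood in 23.2% against 9.12%, YY1's AAGATGGC in 13% against 2.88% and the ERR motif AAGGTCA in 11.6% against 4.66%. SP1's GGGCGG (42% against 35.9%), NFY's CCAAT (43.5% against 37.9%) and the metal response element TGCACNC bound by MTF1 (13% against 12.4%) were found in similar shares. At least 1 of the NRF1, GABPA and YY1 motifs was in 30 of the 69 windows (43.5%), against 13.8% of all windows. A match describes the letters of a window and does not show that a factor binds there. Windows of 4 genes are printed 5′ to 3′ to show these motifs in genes that fell in all 3 KD lines (*Sdhb*, *Atp5k*, *Uqcr11*) and in a gene that was not called in any of them (*Atp5l*). *Ndufv1* and *Uqcrfs1*, which also fell in all 3 lines, held none of the 7 motifs searched. Capitals mark matches to the NRF1, GABPA, YY1 and ERR motifs on either strand.
*Sdhb*, chr4:140961021-140961320, + strand: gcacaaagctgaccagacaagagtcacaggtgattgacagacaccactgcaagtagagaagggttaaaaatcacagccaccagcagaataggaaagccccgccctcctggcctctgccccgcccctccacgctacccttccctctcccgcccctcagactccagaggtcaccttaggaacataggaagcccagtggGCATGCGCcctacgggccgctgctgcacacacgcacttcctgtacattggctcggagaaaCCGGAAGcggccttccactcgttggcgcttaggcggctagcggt
*Atp5k*, chr5:108434350-108434649, - strand: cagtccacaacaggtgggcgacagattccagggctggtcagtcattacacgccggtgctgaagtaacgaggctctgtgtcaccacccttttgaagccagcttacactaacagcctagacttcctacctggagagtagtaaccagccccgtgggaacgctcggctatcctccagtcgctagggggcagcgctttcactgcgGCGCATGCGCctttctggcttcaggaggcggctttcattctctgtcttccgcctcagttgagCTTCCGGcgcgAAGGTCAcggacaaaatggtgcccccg
*Uqcr11*, chr10:80406772-80407071, - strand: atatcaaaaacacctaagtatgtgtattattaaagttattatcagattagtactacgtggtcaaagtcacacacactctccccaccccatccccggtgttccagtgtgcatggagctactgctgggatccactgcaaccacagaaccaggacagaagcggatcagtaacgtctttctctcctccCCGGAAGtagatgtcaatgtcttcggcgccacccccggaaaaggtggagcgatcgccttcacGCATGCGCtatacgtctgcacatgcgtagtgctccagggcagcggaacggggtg
*Atp5l*, chr9:44920693-44920992, - strand: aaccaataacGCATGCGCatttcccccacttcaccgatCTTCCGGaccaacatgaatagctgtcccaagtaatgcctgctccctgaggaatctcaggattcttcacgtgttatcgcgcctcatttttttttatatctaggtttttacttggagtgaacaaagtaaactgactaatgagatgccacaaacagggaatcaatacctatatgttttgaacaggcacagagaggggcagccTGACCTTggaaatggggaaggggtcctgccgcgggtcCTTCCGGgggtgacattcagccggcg
In *Atp5k* the NRF1 matches on the 2 strands overlap each other. *Atp5l* holds NRF1, GABPA and ERR matches as *Atp5k* does. *Atp5k* fell in each KD line and *Atp5l* was at 18.2 to 25.2 CPM across all 24 libraries. Both have near-identical copies elsewhere in the genome, so their levels are uncertain, and these genes do not test a link between motifs and level.

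OXPHOS subunit genes were lower without added metal in each of the 3 KD lines than in scr cells. Their summed level was 12022 ± 1445 CPM in scr NT (SD, n = 2), 7879 ± 581 in *Baf180* KD, 7122 ± 328 in *Baf250a* KD and 7967 ± 414 in *Brd9* KD. Called genes here are those with a Benjamini-Hochberg adjusted p under 0.05 in edgeR's quasi-likelihood test, adjusted over all genes. In *Baf180* KD, 56 of 80 members fell and 1 rose, against 19.3% and 21.7% of all tested genes, with a median log2 fold change of -0.56 (all genes 0.03). In *Baf250a* KD, 64 of 79 fell and 1 rose, against 28.9% of all genes lower and 28.9% higher, with a median of -0.61 (all genes 0.00). In *Brd9* KD, 62 of 79 fell and 0 rose, against 14.1% and 15.1% of all genes, with a median of -0.55 (all genes 0.01). The 3 comparisons share the 2 scr NT libraries and are not independent of each other. In bulk RNA, fewer cells of a type and less RNA per cell cannot be told apart.

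**Figure D1:**
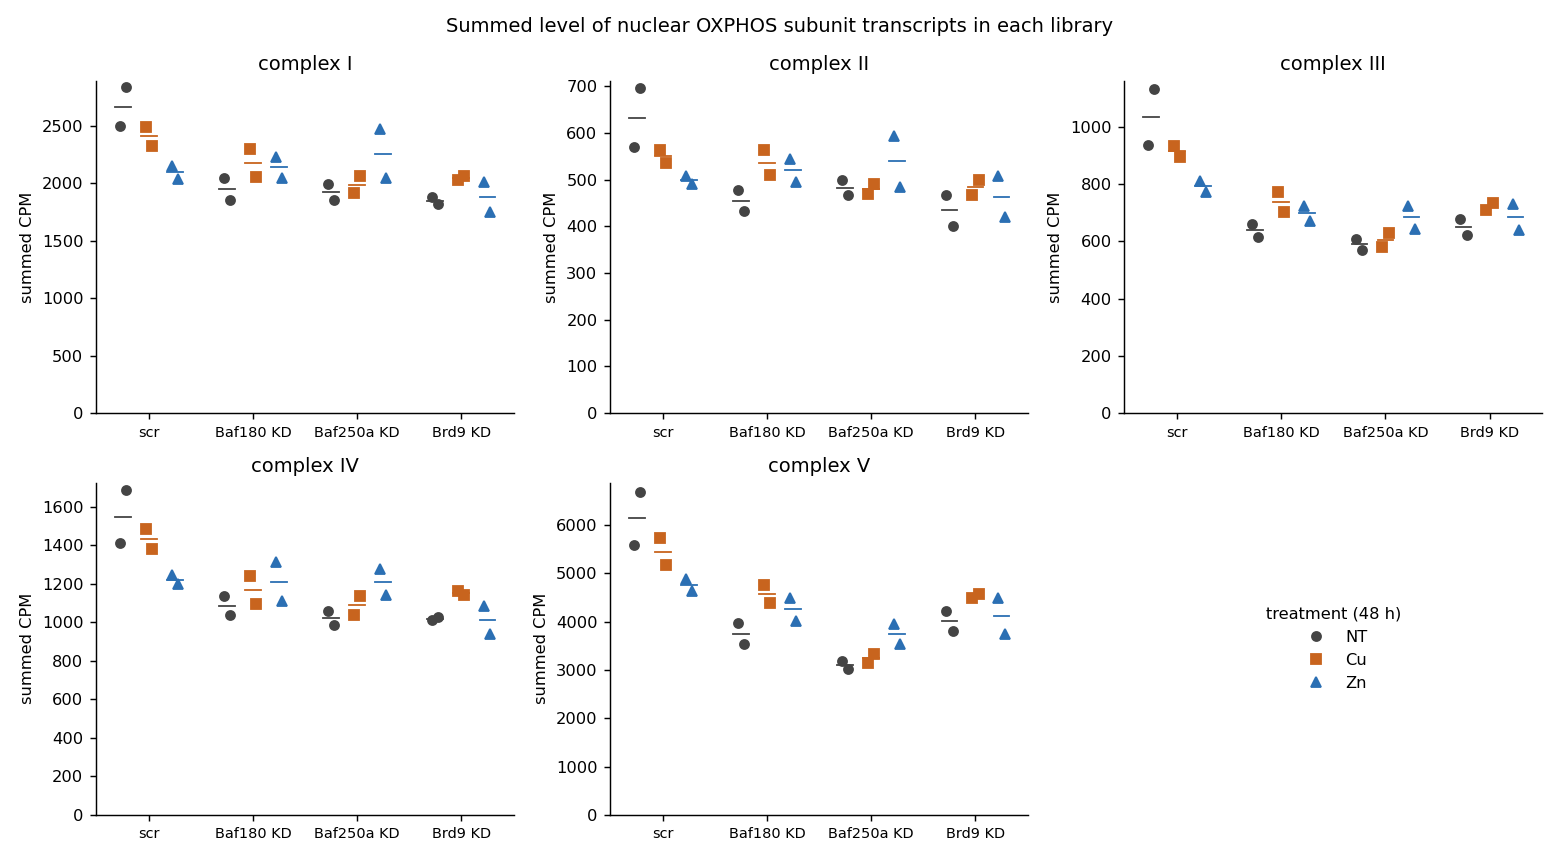
Summed level of the members of each complex (TMM-scaled CPM, y axis) in each of the 24 libraries, by cell line and treatment (x axis); points are libraries and horizontal lines are the mean of 2. In complex V, the sum with no metal was 6139 CPM on average in scr and 3103 to 4011 CPM in the KD lines.

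The GC slope of the libraries moved with these comparisons, from 0.0666 and 0.282 in scr NT to between -0.0202 and -0.165 in the 6 KD NT libraries. Corrected for GC and transcript length, 45 of 78 members fell and 3 rose in *Baf180* KD (20.0% of all genes lower, 21.4% higher), 47 of 77 fell and 6 rose in *Baf250a* KD (30.2% lower, 28.9% higher) and 46 of 77 fell and 0 rose in *Brd9* KD (14.3% lower, 13.5% higher), with medians of -0.34, -0.33 and -0.35. The part of sequence composition in the remaining differences was not tested. The counts that follow come from fits with a library left out, and the share of all genes called is not set beside them. Without scr NT replicate 2, 52, 62 and 48 members fell and 1, 1 and 0 rose in *Baf180*, *Baf250a* and *Brd9* KD. Fewest members were called without *Baf180* KD NT replicate 2 (35) and without *Brd9* KD NT replicate 2 (26) or replicate 1 (36).

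Complex I, the NADH dehydrogenase, had 37 tested genes, of which 27 fell in *Baf180* KD, 29 in *Baf250a* KD and 28 in *Brd9* KD. The medians as counted, with no GC and length correction, were -0.50, -0.51 and -0.55. *Ndufv1*, the flavoprotein that binds NADH, was at 167 and 198 CPM in scr NT, 105 and 98.6 in *Baf180* KD, 114 and 96.0 in *Baf250a* KD and 103 and 103 in *Brd9* KD. All 6 KD libraries were below both scr libraries, with log2 fold changes of -0.85 ± 0.11 (SE), -0.82 ± 0.12 and -0.81 ± 0.11. *Ndufs7*, an iron-sulfur subunit of the electron path to ubiquinone, fell by 0.57, 1.09 and 0.64 on the log2 scale in *Baf180*, *Baf250a* and *Brd9* KD. *Ndufs1*, the largest iron-sulfur subunit, was at 119 and 107 CPM in scr NT and at 97.0 to 114 CPM in the KD libraries, and was called in none of the 3 lines.

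*Ndufv3* (chr17:31520115-31531331, + strand, mm10 as in all gene positions here), a small accessory subunit next to the NADH site, was at 45.5 and 59.9 CPM in scr NT, 40.9 and 34.6 in *Baf180* KD, 55.6 and 54.7 in *Baf250a* KD and 33.3 and 31.7 in *Brd9* KD. The *Baf250a* KD libraries lay between the 2 scr libraries, and those of the other KD lines lay below both. The log2 fold changes were -0.50 ± 0.14 in *Baf180* KD (edgeR adjusted p = 0.0156), 0.03 ± 0.13 in *Baf250a* KD (0.858) and -0.69 ± 0.14 in *Brd9* KD (0.0105). With the GC and length correction they were -0.29, 0.28 and -0.49, and the rise in *Baf250a* KD was then called. Over the 6 libraries of a line, *Ndufv3* ran from 37.6 to 59.9 CPM in scr, 34.6 to 46.8 in *Baf180* KD, 51.8 to 63.1 in *Baf250a* KD and 31.7 to 38.6 in *Brd9* KD, and the ranges of *Baf250a* KD and *Brd9* KD did not overlap.

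Complex II, the succinate dehydrogenase, takes electrons from the citrate cycle and has 4 subunits, none of them encoded in mitochondrial DNA. *Sdhb* (chr4:140961203-140979193, + strand), the iron-sulfur subunit, was at 137 and 183 CPM in scr NT, 71.8 and 59.1 in *Baf180* KD, 76.6 and 80.3 in *Baf250a* KD and 111 and 87.1 in *Brd9* KD. No KD library reached the scr libraries. It fell by 1.30 on the log2 scale in *Baf180* KD (SE 0.14, adjusted p = 3.25e-05), by 1.06 in *Baf250a* KD (SE 0.13, 2.29e-05) and by 0.68 in *Brd9* KD (SE 0.15, 0.0147). *Sdha*, the flavoprotein that oxidises succinate, was at 202 and 228 CPM in scr NT, 203 and 191 in *Baf180* KD, 218 and 197 in *Baf250a* KD and 160 and 147 in *Brd9* KD. The *Brd9* KD libraries alone lay clear of scr, with a called log2 fold change of -0.47 ± 0.10, where *Baf180* KD and *Baf250a* KD had -0.14 ± 0.11 and -0.08 ± 0.11. Of the membrane anchors, *Sdhd* fell in all 3 lines (by 0.65, 0.56 and 0.45 on the log2 scale), and *Sdhc* was called in *Brd9* KD (-0.54 ± 0.14) and had -0.26 ± 0.12 and -0.29 ± 0.12 in *Baf180* KD and *Baf250a* KD. All 4 genes were therefore called in *Brd9* KD and 2 of 4, *Sdhb* and *Sdhd*, in each of the other lines, and the differences between lines were not tested.

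In complex III, the cytochrome *bc*1 complex, 7 of 8 genes fell in each KD line, with medians of -0.85, -0.78 and -0.80. The core proteins *Uqcrc1* (by 0.53, 0.80 and 0.40) and *Uqcrc2* (by 0.48, 0.69 and 0.46) and the Rieske iron-sulfur protein *Uqcrfs1* (by 0.86, 0.76 and 0.89) fell on the log2 scale in *Baf180*, *Baf250a* and *Brd9* KD. The small subunit *Uqcr11* was at 85.3 and 120 CPM in scr NT and between 43.4 and 50.6 CPM in the 6 KD NT libraries. The exception was *Uqcrb* (chr13:66900617-66905378, - strand), a subunit at the ubiquinone reduction site, which was at 20.3 and 16.6 CPM in scr NT, 28.5 and 33.5 in *Baf180* KD, 30.9 and 29.2 in *Baf250a* KD and 20.8 and 31.1 in *Brd9* KD. Every KD library was above both scr libraries, and the rise was called in *Baf180* KD (0.75 ± 0.15, adjusted p = 0.00224) and *Baf250a* KD (0.68 ± 0.13, 0.000806) and not in *Brd9* KD (0.51 ± 0.21, 0.0994). The GC content of *Uqcrb* is 42.2%, near the lowest among the members (42.0%). Under the GC and length correction its fold changes were 0.75, 0.77 and 0.38.

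In complex IV, the cytochrome *c* oxidase, 8 of 14 genes fell in *Baf180* KD, 11 of 13 in *Baf250a* KD and 11 of 13 in *Brd9* KD, with medians of -0.36, -0.54 and -0.53. *Cox4i1*, the regulatory subunit that starts assembly, was at 318 and 421 CPM in scr NT, 209 and 194 in *Baf180* KD, 183 and 154 in *Baf250a* KD and 206 and 199 in *Brd9* KD. Its log2 fold changes were -0.89 ± 0.13, -1.16 ± 0.14 and -0.86 ± 0.13, and *Cox5a*, its partner in the early assembly step, fell by 0.88, 1.01 and 0.85. For other small subunits the calls depended on the GC and length correction, under which the medians of complex IV were -0.06, -0.08 and -0.26 and the counts 5 of 14, 6 of 13 and 4 of 13 lower. *Cox6a1*, *Cox6b1* and *Cox8a* were each called lower in all 3 lines, between -0.36 and -0.60, and lay between -0.24 and 0.15 with the correction. Complexes III and V kept medians of -0.59, -0.55 and -0.59 and of -0.55, -0.70 and -0.41 with it.

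The muscle forms of complex IV had the largest fold changes, on few counts. *Cox6a2* (chr7:128205435-128206387, - strand), the heart and skeletal muscle form of subunit 6a, was at 1.38 and 2.46 CPM in scr NT (22 and 54 counts), 0.583 and 0.494 CPM in *Baf180* KD (13 and 12 counts), 0.116 and 0.283 CPM in *Baf250a* KD (3 and 6 counts) and 0.362 and 0.267 CPM in *Brd9* KD (7 and 4 counts). Its log2 fold changes were -1.86 ± 0.45, -3.33 ± 0.54 and -2.57 ± 0.49. *Cox7a1*, the muscle form of subunit 7a, was at 0.876 and 1.00 CPM in scr NT, 1.03 and 0.659 in *Baf180* KD, 0.155 and 0.188 in *Baf250a* KD and 0.258 and 0.267 in *Brd9* KD. The call was made in *Baf250a* KD (-2.46 ± 0.53) and *Brd9* KD (-1.81 ± 0.48) and not in *Baf180* KD (-0.18 ± 0.43). *Cox8b* had 2 to 11 counts in the NT libraries and was tested in *Baf180* KD alone, where its value was -0.30 ± 0.54.

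In complex V, the ATP synthase, 15 of 17 genes fell in *Baf250a* KD (median -0.87), and 12 of 17 fell in *Baf180* KD (-0.68) and in *Brd9* KD (-0.61). *Atp5b* (chr10:128083273-128090391, + strand) was at 2745 and 3230 CPM in scr NT, 1870 and 1632 in *Baf180* KD, 1381 and 1230 in *Baf250a* KD and 2046 and 1828 in *Brd9* KD. It fell by 0.78, 1.23 and 0.61 on the log2 scale (SE 0.13, 0.11 and 0.11), and *Atp5a1*, its partner in the catalytic head, by 0.68, 0.87 and 0.65. Of the genes for the proton-carrying c ring, which encode the same mature protein, *Atp5g1* fell by 0.78, 0.94 and 0.66 and *Atp5g3* by 1.11, 1.07 and 0.92. *Atp5g2*, the third gene for this ring, was called in *Baf250a* KD (-0.57 ± 0.16) and had -0.22 ± 0.17 and -0.35 ± 0.19 in *Baf180* and *Brd9* KD.

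*Atp5k* (chr5:108433244-108434448, - strand), the small e subunit of the membrane part, had the largest fall of complex V. It was at 29.1 and 43.7 CPM in scr NT, 12.8 and 12.8 in *Baf180* KD, 9.70 and 12.5 in *Baf250a* KD and 13.9 and 13.6 in *Brd9* KD. Its log2 fold changes were -1.53 ± 0.18, -1.75 ± 0.19 and -1.40 ± 0.19, and -1.03, -1.06 and -0.93 with the GC and length correction. *Atp5l*, the g subunit that lies next to it in the complex, was at 19.9 and 18.2 CPM in scr NT and at 18.2 to 22.3 CPM in the KD NT libraries. Its values were 0.14 ± 0.13, 0.15 ± 0.13 and 0.07 ± 0.15, with adjusted p between 0.332 and 0.762. *Atp5k*, *Atp5l*, *Cox7c* and *Uqcrh* are examples of small members with near-identical copies elsewhere in the genome, and only uniquely mapped reads were counted, so their levels are uncertain.

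**Figure D2:**
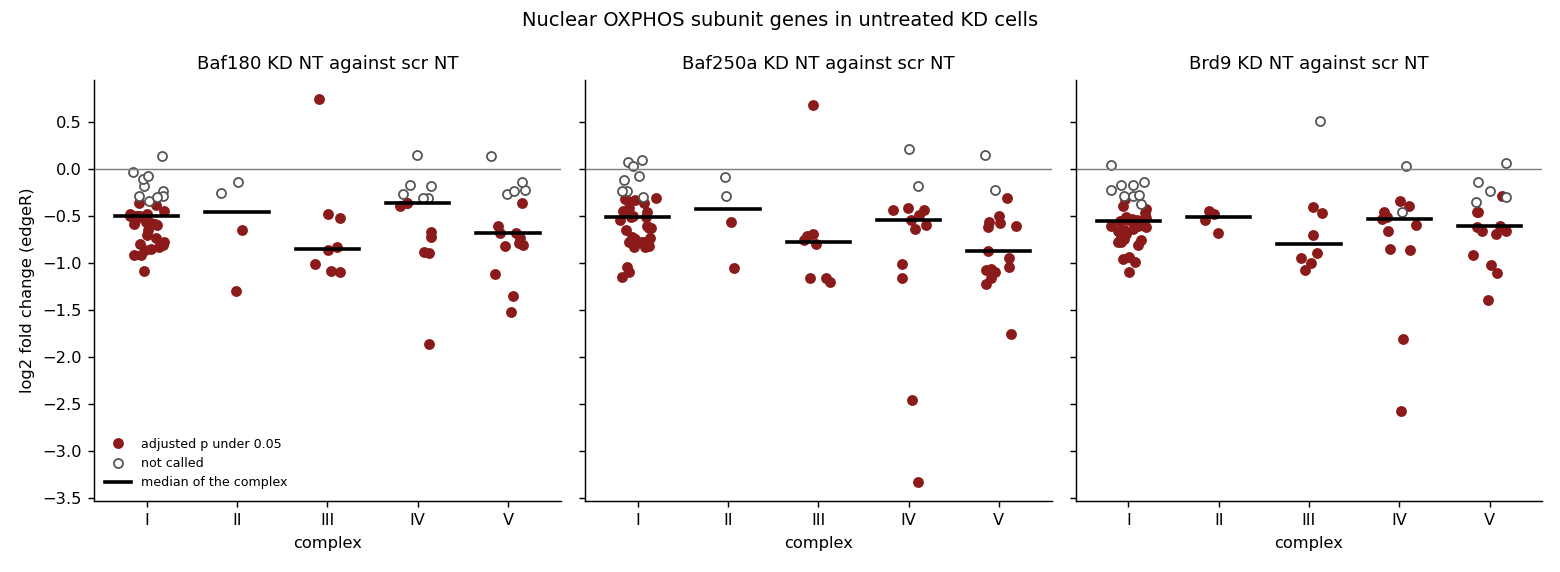
Log2 fold change of each tested member in the KD NT libraries against scr NT (y axis), by complex (x axis) and KD line, with called members (edgeR adjusted p under 0.05) as filled points, others as open points and the median of each complex as a line. Nearly all points lie below 0, with *Uqcrb* of complex III above it.

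**Figure D3:**
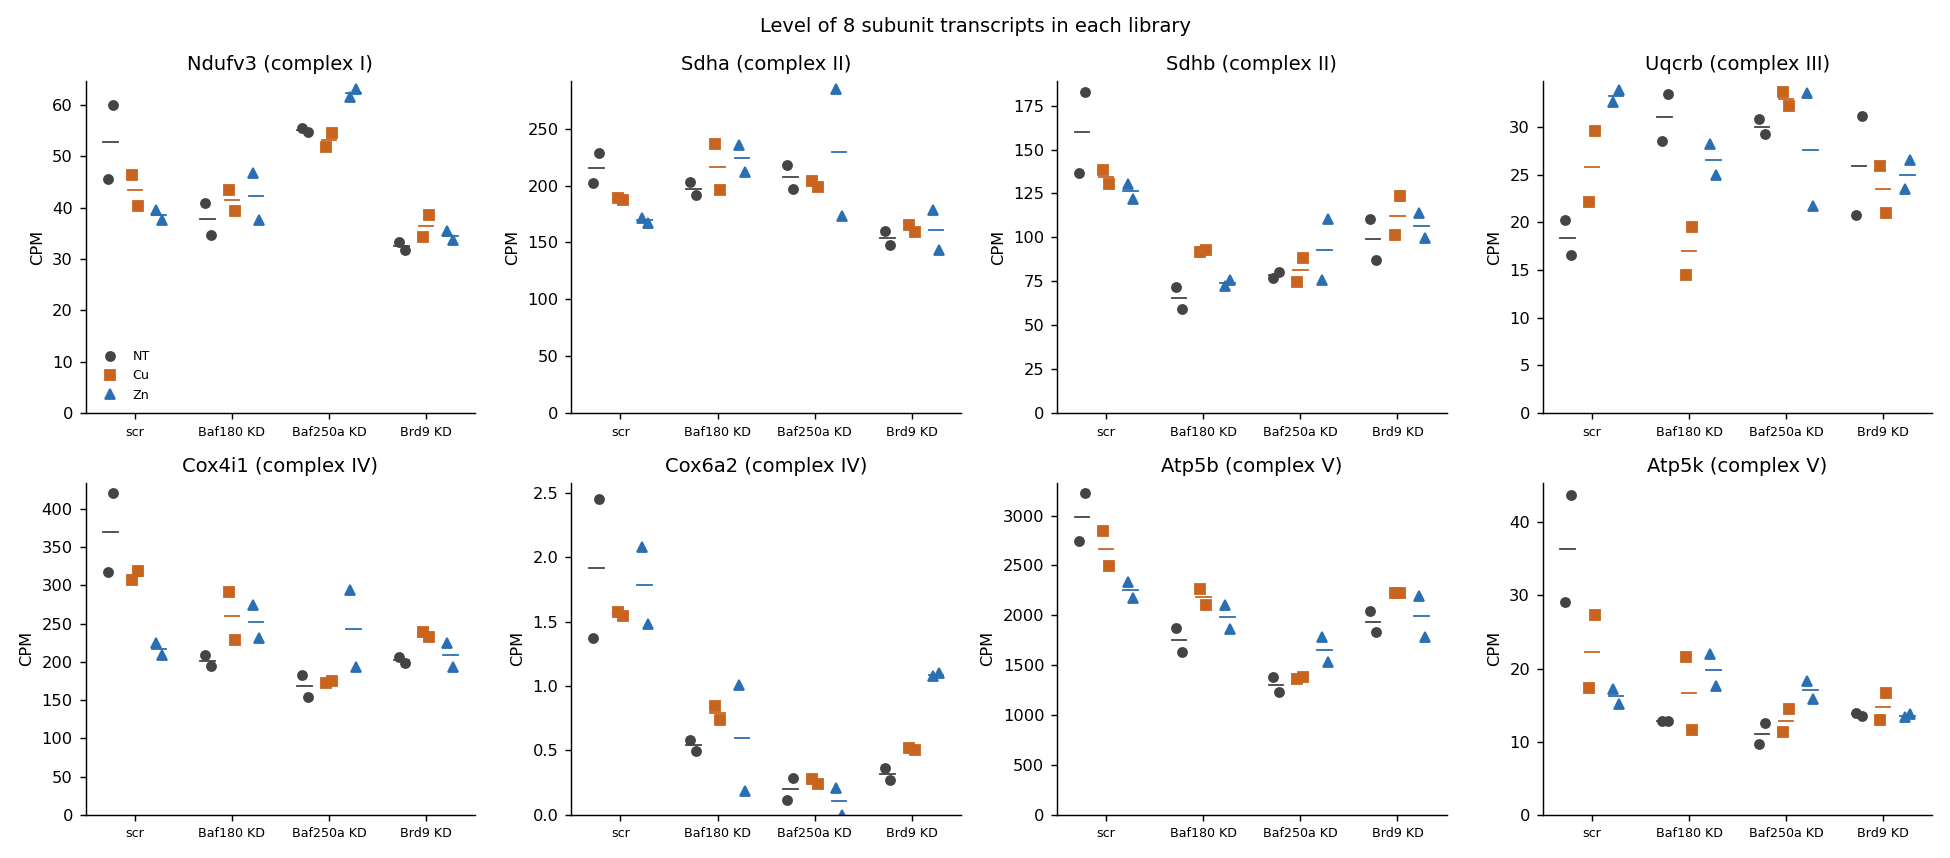
Level of 8 members (TMM-scaled CPM, y axis of each panel) in each of the 24 libraries by cell line and treatment (x axis); points are libraries and horizontal lines are means of 2. *Sdhb*, *Cox4i1*, *Atp5b* and *Atp5k* had their highest mean in scr NT, at 137 and 183, 318 and 421, 2745 and 3230, and 29.1 and 43.7 CPM.

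The members tested but called in none of the lines were the matrix arm subunits *Ndufs1*, *Ndufs6* and *Ndufv2* and the membrane arm subunit *Ndufb3* of complex I, *Cox7b* and *Cox8b* of complex IV, and *Atp5j* and *Atp5l* of complex V, which were singled out after their values were seen. Across all treatments, 20 of 80 members in *Baf180* KD, 23 in *Baf250a* KD and 33 in *Brd9* KD had all 6 KD libraries below all 6 scr libraries, against 9.33%, 14.1% and 7.21% of all genes. In 10 members (*Atp5md*, *Atp5mpl*, *Atp5pb*, *Cox6a2*, *Ndufa6*, *Ndufb5*, *Ndufc1*, *Ndufs5*, *Uqcr10* and *Uqcrq*) all 18 KD libraries were below all 6 scr libraries, as in 3.43% of all genes. No member had all 6 libraries of a KD line above scr, but the share of all genes that did was not counted. With all 12 libraries of a KD line and scr in 1 fit and the treatment as a term, an alternative added after the data were seen, 43 of 80 members fell and 0 rose in *Baf180* KD (19.1% and 22.2% of all genes), 46 of 80 fell and 2 rose in *Baf250a* KD (25.0% and 26.7%) and 64 of 79 fell and 0 rose in *Brd9* KD (16.4% and 16.4%), with medians of -0.32, -0.33 and -0.36. In that fit *Uqcrb* was at -0.08 in *Baf180* KD, against 0.75 in the NT libraries.

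Enzymes and assembly factors of mitochondrial respiration were followed from lists beside the members, to be read against the 19.3%, 28.9% and 14.1% of all genes that were lower and the 21.7%, 28.9% and 15.1% that were higher in *Baf180*, *Baf250a* and *Brd9* KD. Among 13 citrate cycle enzymes, 8 fell in *Baf180* KD, 10 in *Baf250a* KD and 6 in *Brd9* KD and 0 rose, with medians of -0.40, -0.58 and -0.31. *Mdh2*, the mitochondrial malate dehydrogenase, fell by 0.69, 1.23 and 0.60 on the log2 scale, and *Suclg1*, a subunit of succinyl-CoA ligase, by 0.80, 0.84 and 0.69. *Cs*, citrate synthase, fell by 0.56 in *Baf180* KD and by 1.12 in *Baf250a* KD. Among 50 tested assembly factors of the complexes, 16 fell and 2 rose in *Baf180* KD, 24 and 5 in *Baf250a* KD and 12 and 2 in *Brd9* KD, with medians of -0.35, -0.35 and -0.25.

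The regulators of respiratory gene transcription moved in both directions. Of 12 genes, 5 fell and 1 rose in *Baf180* KD, 6 and 2 in *Baf250a* KD and 4 and 2 in *Brd9* KD, where all genes were lower in 19.3%, 28.9% and 14.1% and higher in 21.7%, 28.9% and 15.1%. *Ppargc1a*, the coactivator PGC-1alpha that raises mitochondrial gene expression, was at 29.1 and 26.3 CPM in scr NT, 12.8 and 11.9 in *Baf180* KD, 4.04 and 2.64 in *Baf250a* KD and 9.72 and 10.5 in *Brd9* KD. It fell by 1.17 (SE 0.14), 3.06 (SE 0.19) and 1.44 (SE 0.14) on the log2 scale. *Esrra*, the nuclear receptor ERRalpha that PGC-1alpha coactivates, fell by 0.76, 1.05 and 0.82. *Gabpa* rose by 0.63, 0.47 and 0.57, but with the GC and length correction it was not called (adjusted p = 0.0530, 0.797 and 0.415), and *Tfam*, which maintains mitochondrial DNA, fell in *Baf180* KD (by 0.34) and *Baf250a* KD (by 0.85).

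Subunits encoded in mitochondrial DNA had positive medians. Of 10 tested, 6 rose and 0 fell in *Baf180* KD, 6 and 1 in *Baf250a* KD and 7 and 0 in *Brd9* KD, with medians of 0.74, 0.54 and 0.93, and 21.7%, 28.9% and 15.1% of all genes rose. With the GC and length correction, 1 rose and 1 fell in *Baf180* KD, 2 and 2 in *Baf250a* KD and 3 and 1 in *Brd9* KD, with medians of 0.31, 0.07 and 0.23, and 21.4%, 28.9% and 13.5% of all genes rose.

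Within the Cu and Zn libraries the KD lines were also compared with scr cells given the same metal, in 6 comparisons added after the data were seen. They use other libraries than the NT comparisons but the same selected lines, so they are not an independent test of a KD effect. With Cu, 20 of 79 members fell in *Baf180* KD and 0 rose, against 10.7% and 14.2% of all genes, 35 fell and 0 rose in *Baf250a* KD, against 20.0% and 21.1%, and 20 fell and 0 rose in *Brd9* KD, against 5.27% and 6.94%. Medians were -0.28, -0.34 and -0.34. Once GC content and length were corrected, 16 of 77 fell and 0 rose in *Baf180* KD with Cu (12.4% and 14.5% of all genes), 27 fell and 5 rose in *Baf250a* KD (22.5% and 23.0%) and 22 fell and 0 rose in *Brd9* KD (8.01% and 9.01%). The Cu counts rested on single libraries. Members called were 8 and 3 without *Baf180* KD Cu replicate 1 and 2, 5 and 17 without *Baf250a* KD Cu replicate 1 and 2, and 0 without either *Brd9* KD Cu library, and they were 58 in *Baf250a* KD without scr Cu replicate 2 and 43 and 45 in *Brd9* KD without scr Cu replicate 1 and 2.

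With Zn, 28 of 79 fell and 9 rose in *Baf180* KD, against 24.9% and 24.9%, 19 fell and 23 rose in *Baf250a* KD, against 28.1% and 29.4%, and 23 fell and 1 rose in *Brd9* KD, against 10.6% and 12.6%. Medians were -0.11, -0.02 and -0.21. In *Baf250a* KD with Zn the members' calls in both directions were near the share of all genes. After the correction 33 of 77 fell and 8 rose in *Baf180* KD with Zn (28.0% and 21.0% of all genes), 16 fell and 23 rose in *Baf250a* KD (27.4% and 23.5%) and 32 fell and 0 rose in *Brd9* KD (13.4% and 12.3%). In *Brd9* KD 7 and 9 members were called without scr Zn replicate 1 and 2, and 53 and 37 without *Brd9* KD Zn replicate 1 and 2.

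*Sdhb* was called lower than in scr with both metals in *Baf180* KD (-0.56 ± 0.12 with Cu and -0.77 ± 0.07 with Zn) and in *Baf250a* KD (-0.70 ± 0.12 and -0.66 ± 0.10), and was not called in *Brd9* KD (-0.28 ± 0.12 and -0.22 ± 0.08). The *Baf250a* KD value with Zn rested on Zn replicate 1 of that line, at 75.5 CPM beside 110 CPM in replicate 2 and 130 and 122 CPM in scr. Without that library it was -0.20 and not called, and the call was also lost in DESeq2 and without either scr Zn library. *Sdha*, its partner in complex II, was called higher than scr with Zn in *Baf180* KD (0.39 ± 0.06) and *Baf250a* KD (0.65 ± 0.11). In *Baf250a* KD it was at 285 and 174 CPM beside 171 and 167 CPM in scr, so that replicate 2 was near the scr level. In *Baf250a* KD with Zn, 16 of 37 complex I genes were higher and 5 lower, and 2 of 17 complex V genes were higher and 9 lower. Of all genes, 29.4% were higher and 28.1% lower, and a difference between complexes was not tested. *Atp5c1*, the gamma shaft of the ATP synthase, fell by 0.87 (SE 0.10). This group holds the library of 495778 counts, and without it, 52 members were called in place of 42, while leaving out scr Zn replicate 1 or 2 gave 8 calls each, and Zn replicate 1 of *Baf250a* KD 12.

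The called members with the largest falls with Cu came from complexes I, III, IV and V. *Ndufa5*, an accessory subunit of the matrix arm of complex I, was at 17.4 and 22.5 CPM in scr and 11.65 and 10.3 CPM in *Baf180* KD (-0.89 ± 0.18). *Atp5md*, a small membrane subunit of complex V, was at 92.3 and 86.7 CPM in scr and 48.2 and 49.98 CPM in *Baf180* KD (-0.88 ± 0.12). In *Baf250a* KD *Cox6a2* had -2.54 ± 0.45 (6 and 4 counts) and *Atp5b* -0.93 ± 0.15. *Uqcr11* was at 89.3 and 87.3 CPM in scr and 53.2 and 57.0 CPM in *Brd9* KD (-0.71 ± 0.10), and *Cox6a2* had -1.63 ± 0.37 there (12 and 14 counts), a call that DESeq2 did not make (adjusted p = 0.0812).

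With Zn, *Ndufb7*, an accessory subunit of the membrane arm of complex I, had the largest rise in each KD line. It was at 45.3 and 41.1 CPM in scr, 78.5 and 73.1 CPM in *Baf180* KD (0.80 ± 0.07), 100.8 and 80.8 CPM in *Baf250a* KD (1.23 ± 0.09) and 53.8 and 48.8 CPM in *Brd9* KD (0.27 ± 0.08), and every KD library was above both scr libraries. The *Brd9* KD call was lost with the GC and length correction (adjusted p = 0.0947) and in DESeq2. *Atp5j2* rose in *Baf180* KD (0.52 ± 0.14), at 99.6 and 68.2 CPM beside 59.8 and 55.2 CPM in scr, and its value ran from 0.27 to 0.78 when a library was left out. *Ndufb3* rose in *Baf250a* KD (1.07 ± 0.13), at 31.4 and 25.6 CPM beside 13.7 and 15.8 CPM, as did *Ndufv3* (0.71 ± 0.10), at 61.6 and 63.1 CPM beside 39.6 and 37.6 CPM. The *Ndufv3* call was lost when any library but Zn replicate 2 of that line was left out.

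The falls with Zn were led by *Cox7b* in *Baf180* KD (-0.78 ± 0.09) and *Brd9* KD (-0.77 ± 0.11), at 42.4 and 49.0 CPM and 40.9 and 50.1 CPM beside 77.4 and 79.0 CPM in scr. *Atp5mpl*, another small membrane subunit of complex V, was at 15.7 and 17.7 CPM in *Baf250a* KD and 32.2 and 32.9 CPM in scr (-1.02 ± 0.13). *Atp5md* was at 56.1 and 54.8 CPM in *Brd9* KD and 82.3 and 78.1 CPM in scr (-0.51 ± 0.07). *Cox6a2* had -1.74 ± 0.58 in *Baf180* KD (14 and 4 counts) and -3.05 ± 0.72 in *Baf250a* KD (3 and 0 counts). Its *Baf180* KD value was -0.79 and not called without Zn replicate 2, and in *Baf250a* KD DESeq2 did not call it (adjusted p = 0.231), nor was it called without Zn replicate 1 of that line or scr Zn replicate 1.

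**Figure D4:**
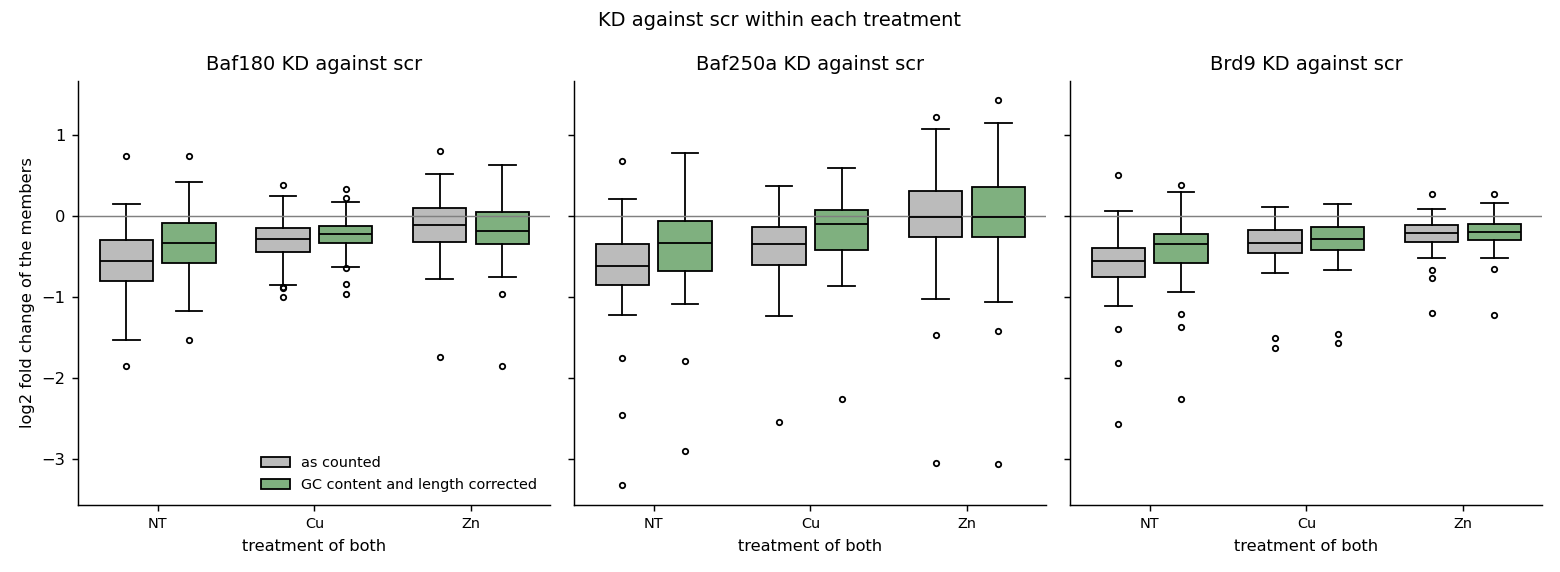
Log2 fold change of the tested members in each KD line against scr (y axis) with no metal, with Cu and with Zn (x axis), as counted and after the GC content and length correction; boxes span the lower to the upper quartile of the members with the median as a line, and members beyond the whiskers are points. The median as counted in *Baf250a* KD was -0.61 with no metal, -0.34 with Cu and -0.02 with Zn.

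Few members were called with Cu, and with 2 libraries per group this does not show that the others were unchanged. The mean summed level without metal and with Cu was 12022 and 10753 CPM in scr and 7879 and 9188 CPM in *Baf180* KD. It was 7122 and 7401 CPM in *Baf250a* KD and 7967 and 8938 CPM in *Brd9* KD. In scr, 0 of 80 were called with Cu by edgeR or DESeq2 (15 had an unadjusted p under 0.05 in edgeR), where 0.0333% of all genes were called, and the median log2 fold change was -0.17. In *Baf250a* KD, 0 of 77 were called by either tool (6 at an unadjusted p under 0.05, 1.27% of all genes called), and in *Brd9* KD 0 of 78 (1 at an unadjusted p under 0.05, 0.274% of all genes called). In *Baf180* KD 8 of 80 rose and 5 fell, against 5.46% and 8.30% of all genes. *Cox7a2l*, which joins complexes III and IV into supercomplexes, was at 44.4 and 40.1 CPM without metal and 67.4 and 54.7 CPM with Cu, a rise of 0.49 ± 0.12. *Sdhb* rose from 71.8 and 59.1 CPM to 91.6 and 92.9 CPM (0.46 ± 0.10) and *Atp5g3* from 152 and 136 CPM to 236 and 172 CPM (0.46 ± 0.13). *Uqcrb* was at 28.5 and 33.5 CPM without metal and 14.4 and 19.5 CPM with Cu, a fall of 0.91 (SE 0.15), and *Cox7b* at 48.6 and 62.5 CPM and 32.3 and 35.2 CPM, a fall of 0.76 (SE 0.14).

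The GC slopes of the *Baf180* KD libraries were -0.0202 and -0.0974 without metal and 0.298 and 0.158 with Cu. Under the GC and length correction 2 of 78 members rose and 7 fell in *Baf180* KD with Cu (2.26% and 3.95% of all genes), and *Sdhb* was no longer called (0.28, adjusted p = 0.0949), whereas *Uqcrb* (-0.63) and *Cox7b* (-0.47) were. With the replicate number as a block 20 of 80 rose and 9 fell (11.1% and 14.4% of all genes). Without Cu replicate 1 or NT replicate 2, 0 members were called, and without Cu replicate 2 the count was 24.

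With Zn, OXPHOS transcripts were lower in scr cells. Of 80 members 25 fell and 2 rose, against 7.13% and 10.5% of all genes, with a median of -0.32. *Ndufv1* went from 167 and 198 CPM to 121 and 117 CPM (-0.60 ± 0.10) and *Cox4i1* from 318 and 421 CPM to 225 and 209 CPM (-0.75 ± 0.13). *Atp5k* went from 29.1 and 43.7 CPM to 17.2 and 15.2 CPM (-1.16 ± 0.25), and *Atp5e*, the epsilon subunit of the central stalk, from 77.9 and 120 CPM to 49.3 and 46.5 CPM (-1.03 ± 0.23). *Uqcrb* rose from 20.3 and 16.6 CPM to 32.6 and 33.9 CPM (0.87 ± 0.17) and *Cox7b*, a small subunit of complex IV, from 55.9 and 43.6 CPM to 77.4 and 79.0 CPM (0.67 ± 0.19). This response and the KD comparisons without metal use the same scr NT libraries.

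The scr Zn response depended on the scr NT libraries and on GC content. The 2 scr Zn libraries had the lowest GC slopes of the 24, and with the GC and length correction 0 of 78 members were called (33 at an unadjusted p under 0.05), where 0.0612% of all genes were called lower, with a median of -0.12. Without scr NT replicate 2, whose slope was 0.282, 0 members were called, and without scr NT replicate 1, 37 were. Leaving out scr Zn replicate 1 or 2 also gave 0 calls, and DESeq2 called 39 (36 lower).

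Members of the KD lines were called lower with Zn only in *Baf250a* KD, where most calls were higher. In *Baf180* KD 0 of 80 were called with Zn by edgeR or DESeq2 (13 at an unadjusted p under 0.05, 0.0197% of all genes called), while edgeR with the replicate number as a block called 3 higher (1.09% of all genes) and with all genes of at least 1 count 7 higher (0.587%), and in *Brd9* KD 0 of 78 (2 at an unadjusted p under 0.05, 0.0334% of all genes called). In *Baf250a* KD 27 of 77 rose and 2 fell, against 8.85% and 7.02% of all genes, with a median of 0.23. *Atp5j2*, the f subunit of the membrane part of complex V, went from 46.9 and 44.4 CPM to 103 and 80.8 CPM (1.13 ± 0.11), *Ndufb3* from 20.3 and 16.4 CPM to 31.4 and 25.6 CPM (0.74 ± 0.15) and *Cox4i1* from 183 and 154 CPM to 293 and 193 CPM (0.67 ± 0.12). *Atp5c1* fell from 140 and 153 CPM to 105 and 138 CPM (by 0.40, SE 0.11) and *Cox7b* from 57.2 and 60.3 CPM to 44.0 and 41.4 CPM (by 0.42, SE 0.13). *Sdha* was at 285 and 174 CPM with Zn, on both sides of its NT values of 218 and 197 CPM.

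The second value of each Zn pair in *Baf250a* KD comes from the library of 495778 counts. Without it 39 of 77 members rose and 6 fell (12.6% and 9.99% of all genes), without Zn replicate 1 no member was called, and DESeq2 called 4 higher (1.05%) and 0 lower. After the GC and length correction 20 of 75 rose and 4 fell (5.64% and 5.10% of all genes).

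**Figure D5:**
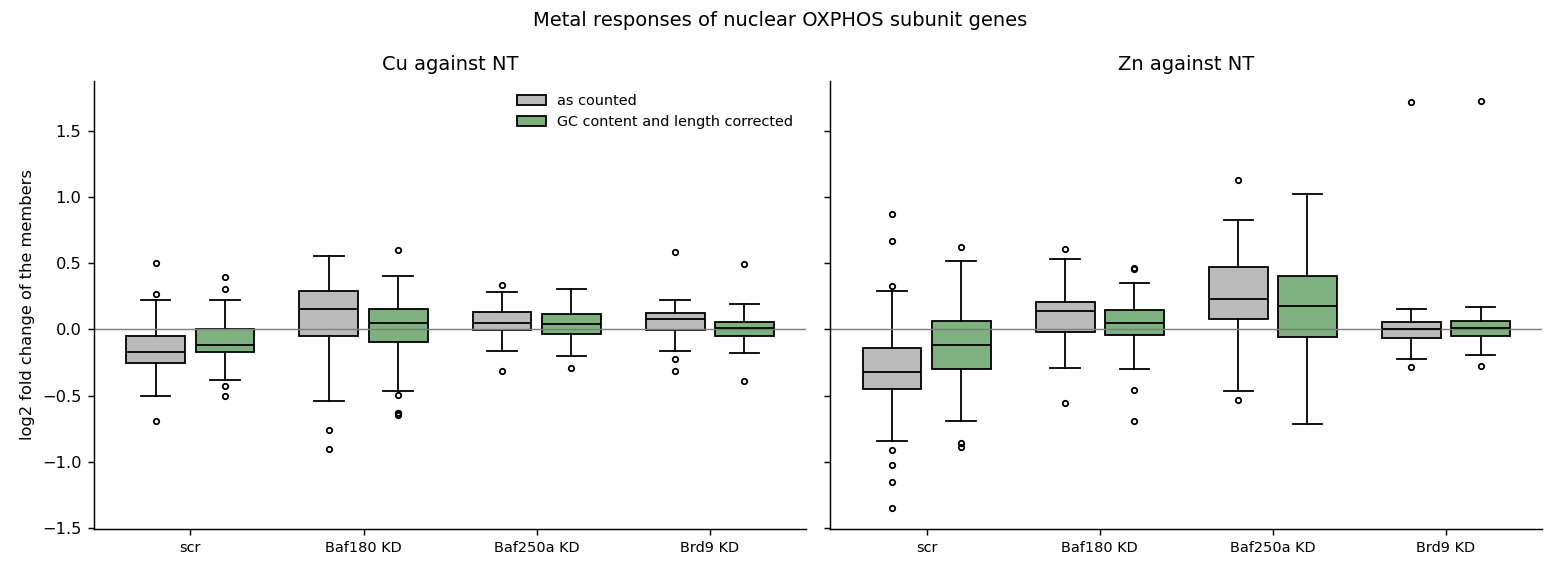
Log2 fold change of each tested member with Cu (left) and Zn (right) against no metal (y axis) in the 4 lines (x axis), as counted and after the GC content and length correction, with boxes as in the plot by treatment. With Zn the median as counted was -0.32 in scr and 0.23 in *Baf250a* KD.

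Differences between the response of a KD line and that of scr were tested directly in the fit of all 24 libraries, as an interaction of line and metal. For Zn, the response was higher than in scr for 42 of 80 members and lower for 2 in *Baf180* KD (16.1% and 12.6% of all genes), for 47 and 1 in *Baf250a* KD (17.3% and 13.2%) and for 25 and 1 in *Brd9* KD (5.86% and 5.25%). The medians of the difference were 0.55, 0.67 and 0.45 on the log2 scale. For Cu, 18 were higher and 3 lower in *Baf180* KD (5.39% and 7.41%), with a median of 0.41. In *Baf250a* KD 0 of 80 were called for Cu by edgeR or DESeq2 (13 at an unadjusted p under 0.05, 0.0121% of all genes called) and in *Brd9* KD 0 of 80 (27 at an unadjusted p under 0.05, 0.0363% of all genes called).

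*Atp5k* had a difference in the Zn response of 1.88 ± 0.35 in *Baf180* KD, 1.96 ± 0.39 in *Baf250a* KD and 1.21 ± 0.35 in *Brd9* KD. Its levels with Zn were 22.0 and 17.6 CPM, 18.4 and 15.8 CPM and 13.4 and 13.8 CPM, beside 17.2 and 15.2 CPM in scr. Without metal, scr stood apart at 29.1 and 43.7 CPM. *Atp5e* had differences of 1.64 ± 0.27, 1.74 ± 0.28 and 1.17 ± 0.27, and *Cox4i1* of 1.17 ± 0.21, 1.46 ± 0.22 and 0.87 ± 0.21. *Ndufv3* differed by 0.69 ± 0.18, 0.69 ± 0.19 and 0.60 ± 0.18, and *Sdhb* by 0.60 ± 0.21 in *Baf180* KD, where it was called, and by 0.49 ± 0.23 and 0.50 ± 0.21 in the other lines. *Uqcrb* differed in the other direction, by -1.01 ± 0.25 in *Baf180* KD, -0.70 ± 0.27 in *Baf250a* KD (not called) and -0.85 ± 0.25 in *Brd9* KD, and by -1.35 ± 0.25 for Cu in *Baf180* KD. *Cox7b* differed by -0.86 ± 0.24 and -1.01 ± 0.26 for Zn in *Baf180* and *Baf250a* KD and by -0.98 ± 0.24 for Cu in *Baf180* KD. The largest differences for Cu in that line were 1.12 ± 0.27 for *Atp5e* and 1.09 ± 0.34 for *Atp5k*, and for Zn in *Baf250a* KD *Atp5j2* had 1.97 ± 0.25.

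All 6 of these differences contain the scr NT libraries, as do the KD comparisons without metal. With the GC and length correction the Zn differences called were 19 higher and 1 lower in *Baf180* KD (3.04% of all genes higher), 32 and 2 in *Baf250a* KD (7.93%) and 0 in *Brd9* KD (0% of all genes higher; 27 members at an unadjusted p under 0.05), and the Cu differences in *Baf180* KD were 2 and 1 (0.458%). Without scr NT replicate 2 the counts of called members were 20 in *Baf180* KD and 0 in *Brd9* KD for Zn, and 0 in *Baf180* KD for Cu. In *Baf250a* KD, 8 members were called without Zn replicate 1.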

How the data were processed

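RNA-seq was made by the study from 24 cultures of C2C12 myoblasts (12 groups, 2 replicates each). The authors removed ribosomal RNA with RNase H, made strand-specific libraries, aligned read pairs to mm10 (STAR, unique alignments only) and counted pairs per gene with featureCounts on the reverse strand. The deposited counts are whole numbers, not normalized. The authors also deposited 14 tables of their own DESeq2 comparisons, giving log2 fold changes and their errors. These deposited tables hold the authors' p-values too, and none of their columns was used. Samples were grouped by their titles, because 1 tag of the labels gives other treatments.

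Tests used edgeR 4.0.16 in R 4.3.3 (glmQLFit and glmQLFTest, TMM, filterByExpr), on the whole table, with a Benjamini-Hochberg adjusted p under 0.05 over all genes tested. Each metal response was fitted within its line (6 libraries), KD comparisons on the 4 libraries compared, and differences between responses on all 24. CPM are TMM-scaled. Alternatives were DESeq2 1.42.0, RLE size factors, all genes with at least 1 count, an offset for GC content and transcript length (spline with 5 degrees of freedom), the replicate number as a block, other sets of libraries and each library left out. Lengths, GC content and positions came from GENCODE M21 (GRCm38, the same build as mm10) by symbol, for 53292 of 55291 symbols, and *Atp5pb* and *Atp5md* had no gene model, so that corrected fits hold 78 members. Promoter windows came from RefSeq (GRCm38.p6).

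Total counts of 495778 to 75179394 per library set the precision. Tested on simulated data with the means and depths of the *Baf180* KD NT comparison (14851 genes), 84.5% of 200 genes given a log2 change of 1 were recovered, and 70% in the scr Cu comparison (15002 genes). The changed genes were drawn from those above a minimum mean count, and no GC drift between libraries was simulated. Recovery of smaller changes, such as the medians of the members, was not measured. The replicates are described as independent biological replicates. Replicate numbers were not used as pairs: deviations of same-numbered libraries correlated by 0.17 to 0.32 among the *Baf180* KD groups and by -0.24 to 0.34 among the scr groups.

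The members follow from the symbol rule, and they, the lists of other genes and the comparisons were chosen with earlier results of these data known. Named with values were *Ndufv3*, *Sdhb*, core subunits, isoform pairs, and in each comparison the 2 called members with the largest rise and fall whose groups do not overlap, plus their values in other comparisons. Genes singled out outside this rule are marked as such or serve as values of a list. The values of 1 member are not reported here.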

Additional observations from a re-analysis of the deposited data

Results flagged for a closer look

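The difference between the Zn response of a KD line and that of scr was called for 44 members in *Baf180* KD, 48 in *Baf250a* KD and 26 in *Brd9* KD, by the interaction of line and metal in the fit of all 24 libraries. The difference between Cu responses was called for 21 members in *Baf180* KD. Of all genes, the Zn difference was called higher in 16.1% and lower in 12.6% (*Baf180* KD), 17.3% and 13.2% (*Baf250a* KD) and 5.86% and 5.25% (*Brd9* KD). The Cu difference in *Baf180* KD was called higher in 5.39% and lower in 7.41% of all genes. With the GC and length correction the counts of members were 20, 34, 0 and 3, where 3.04%, 7.93%, 0% and 0.458% of all genes were called higher. All of these differences share the scr libraries, and those of *Baf250a* KD also rest on a Zn library of 495778 counts. Groups hold 2 libraries, so no single library could be tested as an outlier within its group.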

How the results depend on the processing

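The median of the members stayed below 0 in the KD lines without metal under all alternatives run (-0.74 to -0.32), although single members changed sign, with 35 to 67 members called in *Baf180* KD, 49 to 69 in *Baf250a* KD and 26 to 66 in *Brd9* KD when a library was left out, the highest in each case without scr NT replicate 1. Among alternatives that kept all libraries, the replicate block with GC and length correction gave 35 in *Brd9* KD. A lone library left in a group was assumed to vary like the other groups. Shares of all genes are not given beside the counts in this section.

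Metal responses depended on the setting. With all genes of at least 1 count, 5 members were called for Cu in scr, 27 for Cu and 7 for Zn in *Baf180* KD. DESeq2 called 21 for Cu in *Baf180* KD and 4 for Zn in *Baf250a* KD. The fit of all 24 libraries called 48 for Zn in scr and 12 in *Baf250a* KD. The GC and length correction gave 0 for Zn in scr. Leaving out 1 library gave 0 to 24 for Cu in *Baf180* KD, 0 to 37 for Zn in scr, 0 to 45 for Zn in *Baf250a* KD, and 0 for the other responses. Differences between Zn responses ran from 20 to 47 (*Baf180* KD), 8 to 51 (*Baf250a* KD) and 0 to 41 (*Brd9* KD), and between Cu responses from 0 to 42 (*Baf180* KD), 0 to 0 (*Baf250a* KD) and 0 to 1 (*Brd9* KD). With the GC and length correction they were 3 for Cu in *Baf180* KD and 20 and 0 for Zn in *Baf180* and *Brd9* KD. With the 12 libraries of the 2 lines they were 9 for Cu in *Baf180* KD and 8 for Zn in *Brd9* KD, and with all genes of at least 1 count 2 and 8 for Cu in *Baf250a* and *Brd9* KD.

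KD against scr with the same metal gave 3 to 19 (*Baf180* KD), 5 to 58 (*Baf250a* KD) and 0 to 45 (*Brd9* KD) with Cu, and 27 to 47, 8 to 52 and 7 to 53 with Zn, when a library was left out. All genes of at least 1 count gave 38 and 37 in *Brd9* KD with Cu and Zn, the fit of all 24 libraries 24 and 13 in *Baf180* and *Brd9* KD with Zn, and DESeq2 12 in *Baf250a* KD with Zn. The cause of these shifts was not tested.

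The replicate number as a block gave 29 for Cu and 3 for Zn in *Baf180* KD, 0 for Zn in scr, and, against scr with Zn, 24 in *Baf250a* KD (10 higher and 14 lower) and 46 in *Brd9* KD. The block with GC and length correction gave 0 for Zn in scr, differences of 6 for Cu in *Baf180* KD and 25 and 0 for Zn in *Baf180* and *Brd9* KD, and, against scr, 12 in *Baf180* KD with Cu and 18 and 44 in *Baf250a* and *Brd9* KD with Zn. In the KD comparisons without metal the block gave 53, 61 and 56, and no other count moved by over 1.5 times. Same-numbered NT libraries of scr correlated by -0.20 with *Baf180* KD and -0.26 with *Brd9* KD, and crossed numbers, added after the data were seen, gave 67 and 71.

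Of 1597 values of named members under alternatives that kept all libraries, 1320 kept direction and call, 268 kept direction and lost the call, and 9 changed sign; with a library left out, these were 747, 383 and 2 of 1132. The sign changed for *Uqcrb* in *Baf180* KD with treatment as a term (-0.083), and with the GC and length correction, without and with the block, for *Cox6a1* in *Baf180* KD (0.0275 and 0.0286), *Cox8a* in *Baf180* KD (0.0119 and 0.0114) and *Baf250a* KD (0.15 and 0.15) and the Zn difference of *Cox6a1* in *Baf180* KD (-0.0031 and -0.0071). Without *Baf250a* KD Zn replicate 1 it changed for *Cox5b* with Zn (range with a library left out -0.11 to 0.62) and the Zn difference of *Uqcrc2* (-0.22 to 0.71).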

Other observations

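The regulators of mitochondrial genes did not all move with the subunit genes in the metal groups. In scr cells *Ppargc1a* was at 29.1 and 26.3 CPM without metal, 36.5 and 34.4 CPM with Cu and 44.0 and 43.3 CPM with Zn, and the value with Zn was called higher by edgeR (log2 fold change 0.68 ± 0.10, adjusted p = 0.0275), while 25 subunit genes were called lower in that comparison. After the GC and length correction the Zn value was not called (adjusted p = 0.745). In each KD line *Ppargc1a* stayed below all scr libraries, at 6.78 to 12.8 CPM in *Baf180* KD, 1.93 to 4.04 CPM in *Baf250a* KD and 6.78 to 10.7 CPM in *Brd9* KD. Against scr with the same metal its log2 fold changes were -2.17, -3.92 and -2.34 with Cu and -2.26, -3.80 and -2.09 with Zn, in *Baf180*, *Baf250a* and *Brd9* KD, and all 6 of these differences were also called after the correction. *Esrra* was called lower than scr with Zn in *Baf250a* and *Brd9* KD (-0.25 in both), and it was called lower with Zn than without metal in scr (-0.56). With Zn it was at 53.4 and 51.7 CPM in scr and 45.2 and 42.0 CPM in *Brd9* KD. In *Baf250a* KD it was at 42.9 and 53.2 CPM, so that replicate 2, the shallowest library, lay between the scr values.

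Of the 10 tested subunits encoded in mitochondrial DNA, 7 rose with Zn in scr (median 1.37, 10.5% of all genes higher) and 4 fell with Zn in *Baf250a* KD (median -0.50, 7.02% of all genes lower). After the GC and length correction the calls in scr were lost (median 0.35) and 2 rose in *Baf250a* KD (median 0.33, 5.64% of all genes higher).

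The muscle form *Cox6a2* had 7 and 4 counts without metal in *Brd9* KD and 24 and 15 with Zn (0.362 and 0.267 CPM against 1.08 and 1.10 CPM), a difference of 1.72 ± 0.45 that edgeR did not call. It was singled out after its values were seen.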
